A study of Mus musculus with 6 samples.

Results

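Cav1, Cav2, Cavin1, Cavin2, Emp1 and Emp2 were followed across the cell states of sorted mouse lung tumour cells, as 6 genes of the 31055 features in the count matrix. They were taken by symbol, with no threshold on their measured values. The cells came from lung tumours grown for 20 weeks after lentiviral Cre, in mice that all carried KrasLSL-G12D, Lkb1XTR/XTR and Rosa26LSL-tdTomato, and RNA of single cells was read in droplets from the 3′ end. In this method each transcript copy carries a unique molecular identifier (UMI). Lkb1XTR is an allele that Cre inactivates with a gene trap and that FLPo-ERT2, a recombinase switched on by tamoxifen, restores. The 3 Restored mice carried Rosa26LSL-tdTomato/FLPo-ERT2 and received tamoxifen for 2 weeks, in doses of 4 mg. The 3 NonRestored mice were 1 with Rosa26LSL-tdTomato given tamoxifen, 1 of that genotype given vehicle, and 1 with Rosa26LSL-tdTomato/FLPo-ERT2 given vehicle. Of the 6 mice, 4 were male and 2 female. The matrix pooled all libraries without a map from cells to mice, so the comparison of Restored with NonRestored tumours was not analysed here and the shared barcodes of the libraries were not counted. The pooled matrix counts as 1 sample with no replicates. No test was made between cell states, and every 95% interval below covers counting error only.

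Cells were kept when they had at least 500 detected genes and at most 20% mitochondrial UMIs, which left 12183 of 16017 cells and a median of 19348 UMIs per cell. States were set by thresholds on a few genes, in UMIs per 10000 UMIs of the cell, and none of the 6 genes was used for them. The alveolar type II (ATII) gate, for the surfactant-producing cell of the alveolus, required Sftpc of at least 500, Hopx under 2 and a sum of Krt8 and Krt18 under 50, and held 6975 cells (57.3%). The alveolar type I (ATI) gate, for the thin gas-exchange cell, required Hopx of at least 15 with the same keratin limit and held 956 cells (7.85%). The keratin-high gate required a keratin sum of at least 50 and held 1183 cells (9.71%). The endothelial gate required a UMI of both Pecam1 and Cdh5 and held 113 cells, although the sort had excluded cells stained for CD31, the protein made from Pecam1. For reference, 225 cells with UMIs of Col1a1, Col1a2 and Col3a1 formed a fibroblast gate and 73 cells with Ptprc and Tyrobp an immune gate. The endothelial gate shared 5 cells with the ATII gate, 1 with the keratin-high gate and 4 with the fibroblast gate, and none with the ATI gate, and 2962 cells, among them 218 of the fibroblast and 69 of the immune gate, fell outside the ATII, ATI, keratin-high and endothelial gates. Median depth was 21660 UMIs per cell in the ATII gate, 11796.5 in the ATI gate, 23490 in the keratin-high gate and 12051 in the endothelial gate.

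Each gate carried the markers of its name, though not those alone. All 12 ATI markers other than Hopx were at least 2-fold higher in the ATI than in the ATII gate, all 10 transitional markers other than the gate keratins were higher in keratin-high than in ATII cells, and all 16 endothelial markers other than the gate genes were higher in endothelial than in ATI cells. Of 12 ATII markers, 11 were lower in the ATI gate than in the ATII gate. The red tumour label TdTomato stood at 6491 CPM (UMIs per 1000000 UMIs summed over the cells of a gate) in the ATII gate, 7995 in the ATI gate, 10029 in the keratin-high gate, 1174 in the endothelial gate and 671 in the fibroblast gate. The ATII markers summed to 65444 CPM in the ATII gate and 13584 CPM in the ATI gate. In the ATI gate the ATI markers summed to 14532 CPM. At least 2-fold higher in ATI than in ATII cells were 7 of 10 transitional markers, against 10% of all genes compared. Of 11 ATI markers compared, 7 were higher in keratin-high than in ATII cells, against 13.1%.

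Caveolae are small flask-shaped pits of the plasma membrane that take part in endocytosis, lipid handling and the buffering of membrane tension. Their coat is built from caveolins, with Cav1 as the scaffold outside muscle and Cav2 as its partner, and from the peripheral cavins, of which Cavin1 is needed for the pits to form and Cavin2 helps to shape them. Caveolae are abundant in lung endothelium and in ATI cells. Emp1 and Emp2 are epithelial membrane proteins, small proteins of the PMP22 family that cross the membrane several times and are linked to adhesion and growth; Emp2 is known for its high level in the distal lung epithelium.

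Cav2 and Cav1 are neighbours on chromosome 6, transcribed in the same direction. In the GENCODE M21 annotation on GRCm38, Cav2 (ENSMUSG00000000058) spans chr6:17281185-17289115 and Cav1 (ENSMUSG00000007655) spans chr6:17306335-17341452, both on the plus strand, and 17219 bases separate the end of Cav2 from the start of Cav1. An antisense gene, Gm15581, overlaps both. Cavin1 (ENSMUSG00000004044) lies at chr11:100956733-100970887 on the minus strand. Cavin2 (ENSMUSG00000045954) lies at chr1:51289126-51302960 on the plus strand and is overlapped by the antisense gene 9330175M20Rik. Emp1 (ENSMUSG00000030208) lies at chr6:135362545-135383173 on the plus strand and Emp2 (ENSMUSG00000022505) at chr16:10281749-10313968 on the minus strand. All 6 are protein-coding genes.

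The promoters are shown for the caveolin neighbours, for Cavin2, whose level differed most between ATI and ATII cells, and for the Emp pair, whose levels ran in opposite directions along Hopx within the keratin-high cells. Each run covers 250 bases before to 50 bases after a transcript start, 5′ to 3′ on the strand of the gene, from RefSeq on GRCm38.p6. Capitals mark the GC box letters GGGCGG or their reverse complement CCGCCC, and the CCAAT box letters CCAAT or their reverse complement ATTGG. The third motif searched was CATTCC with its reverse complement GGAATG, the core letters bound by TEAD factors.
Cav1 (chr6:17306085-17306384, plus strand): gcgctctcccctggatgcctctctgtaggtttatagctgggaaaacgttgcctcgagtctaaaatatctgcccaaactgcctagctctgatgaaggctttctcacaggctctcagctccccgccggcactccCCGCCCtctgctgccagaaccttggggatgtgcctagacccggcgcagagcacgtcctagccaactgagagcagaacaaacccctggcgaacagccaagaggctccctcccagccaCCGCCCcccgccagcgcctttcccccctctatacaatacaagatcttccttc
Cav2 (chr6:17280935-17281234, plus strand): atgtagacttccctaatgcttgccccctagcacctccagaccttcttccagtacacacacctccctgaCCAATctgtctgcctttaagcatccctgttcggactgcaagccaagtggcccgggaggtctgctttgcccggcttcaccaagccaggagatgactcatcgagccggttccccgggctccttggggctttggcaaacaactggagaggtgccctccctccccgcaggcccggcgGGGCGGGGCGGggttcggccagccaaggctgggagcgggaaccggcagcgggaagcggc
Cavin2 (chr1:51288876-51289175, plus strand): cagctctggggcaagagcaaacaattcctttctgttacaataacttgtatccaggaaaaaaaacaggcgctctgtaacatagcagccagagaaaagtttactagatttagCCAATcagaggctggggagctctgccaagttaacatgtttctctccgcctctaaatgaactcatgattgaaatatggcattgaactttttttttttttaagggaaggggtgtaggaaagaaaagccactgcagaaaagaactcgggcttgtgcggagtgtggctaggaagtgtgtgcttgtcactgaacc
Emp1 (chr6:135362681-135362980, plus strand): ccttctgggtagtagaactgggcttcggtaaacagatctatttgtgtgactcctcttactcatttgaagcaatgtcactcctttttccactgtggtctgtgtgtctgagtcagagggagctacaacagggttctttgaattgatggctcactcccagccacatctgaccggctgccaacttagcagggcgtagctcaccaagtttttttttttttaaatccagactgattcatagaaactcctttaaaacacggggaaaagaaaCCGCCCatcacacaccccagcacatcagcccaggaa
Emp2 (chr16:10313919-10314218, minus strand): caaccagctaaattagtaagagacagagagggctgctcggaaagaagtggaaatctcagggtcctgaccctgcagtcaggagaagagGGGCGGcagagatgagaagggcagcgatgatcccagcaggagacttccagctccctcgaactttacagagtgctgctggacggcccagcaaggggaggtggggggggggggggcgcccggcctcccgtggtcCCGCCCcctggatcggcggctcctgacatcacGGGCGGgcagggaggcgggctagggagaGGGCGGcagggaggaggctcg
The table held a further start for Cav1 and for Emp1, whose windows held none of the 3 motifs and are not printed. The printed Cav1 window held 2 matches to the GC box, the Cav2 window 2 GC boxes, which share a base, and 1 CCAAT box, the Cavin2 window 1 CCAAT box, the Emp1 window 1 GC box and the Emp2 window 4 GC boxes. Both Cavin1 windows, which start 2 bases apart and are not printed, held 1 match to each motif, and CATTCC was found in none of the 5 windows above. Among 32851 promoters of that length in the table, 35.7% held the GC box letters, 37.4% the CCAAT letters and 14.7% the CATTCC letters. These are matches of letters in a window and no more than that.

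Cav1, the caveolin scaffold, was an endothelial transcript in these cells with a lower level in ATI cells. Its level was 557 CPM (523 to 592) in the endothelial gate, 55.2 CPM (51.2 to 59.3) in the ATI gate, 23.4 CPM (21.7 to 25.2) in the keratin-high gate and 2.36 CPM (2.13 to 2.61) in the ATII gate. The fibroblast gate stood at 25.6 CPM (20.97 to 31.0) and the immune gate at 19.4 CPM (13.6 to 26.8), and the intervals of the keratin-high, fibroblast and immune gates overlapped. The fibroblast level rested on few cells, since the 1% of its cells with most Cav1 UMIs held 51.4% of them, and 4 cells of that gate were also in the endothelial gate. The ATI level was 23.4 times the ATII level (20.6 to 26.5), and the endothelial level was 10.1 times the ATI level (9.17 to 11.1).

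Cav2, the partner caveolin, was spread more evenly. It stood at 369 CPM (342 to 398) in the endothelial gate, 214 CPM (206 to 222) in the ATI gate, 142 CPM (137 to 146) in the keratin-high gate and 32.3 CPM (31.4 to 33.1) in the ATII gate. The immune gate was between the keratin-high and ATII gates at 66.7 CPM (55.4 to 79.5), and the fibroblast gate, at 27.1 CPM (22.3 to 32.6), overlapped with the ATII gate. The ATI level was 6.63 times the ATII level (6.33 to 6.94), and the endothelial level was 1.73 times the ATI level (1.58 to 1.88).

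Cavin1, the cavin needed for caveolae to form, was close in ATI and keratin-high cells. It was measured at 412 CPM (383 to 443) in the endothelial gate, 203 CPM (195 to 211) in the ATI gate, 186 CPM (181 to 191) in the keratin-high gate, 137 CPM (126 to 149) in the fibroblast gate, 46.4 CPM (45.3 to 47.4) in the ATII gate and 8.60 CPM (4.92 to 14.0) in the immune gate. The ATI level was 4.38 times the ATII level (4.19 to 4.58) and 1.09 times the keratin-high level (1.04 to 1.14), and the latter ratio was below 1 under 2 other threshold settings, as given in the closing section.

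Cavin2 separated ATI from ATII cells more than any other of the 6 genes. Its level was 420 CPM (390 to 451) in the endothelial gate, 236 CPM (228 to 245) in the ATI gate, 146 CPM (135 to 158) in the fibroblast gate, 43.1 CPM (40.8 to 45.5) in the keratin-high gate and 3.78 CPM (3.49 to 4.09) in the ATII gate. The immune gate, with 3.23 CPM (1.18 to 7.02) from 6 UMIs in 2 of its 73 cells, overlapped with the ATII gate. The ATI level was 62.5 times the ATII level (57.3 to 68.2), which ranked 5 from the top among 12058 genes compared, and 5.48 times the keratin-high level (5.13 to 5.84). Rank was taken on the log2 ratio with 1 CPM added to both levels. As the ATII level was not distinguished from that of the immune gate, any background in it would make the ratio to ATII cells a lower bound.

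Emp1 had its highest epithelial level in keratin-high cells. It stood at 801 CPM (760 to 843) in the endothelial gate, 307 CPM (301 to 314) in the keratin-high gate, 22.3 CPM (19.9 to 25.02) in the ATI gate and 12.5 CPM (11.98 to 13.1) in the ATII gate, with 161 CPM (149 to 174) in the fibroblast gate and an overlapping 146 CPM (129 to 165) in the immune gate. The keratin-high level was 24.5 times the ATII level (23.4 to 25.8), rank 26 from the top of 12183 genes, and 13.8 times the ATI level (12.3 to 15.5). The ATI level was 1.78 times the ATII level (1.57 to 2.02), but the 1% of cells with most Emp1 UMIs held 34.9% of them in the ATI gate and 37.5% in the ATII gate, and at their unequal depths an Emp1 UMI was found in 12.1% of ATI and 11.7% of ATII cells.

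Emp2 was the member with an epithelial rather than an endothelial maximum. It was measured at 1886 CPM (1863 to 1910) in the ATI gate, 1142 CPM (1130 to 1154) in the keratin-high gate, 305 CPM (302 to 307) in the ATII gate, 247 CPM (232 to 262) in the fibroblast gate, 97.3 CPM (83.5 to 113) in the endothelial gate and 33.9 CPM (26.0 to 43.3) in the immune gate. The ATI level was 6.19 times the ATII level (6.10 to 6.29) and 19.4 times the endothelial level (16.7 to 22.6). Without the endothelial cells that overlap another gate, the log2 ratio of endothelial over ATI cells was -4.89 in place of -4.28. No intervals overlapped between neighbours in this order.

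**Figure D1:**
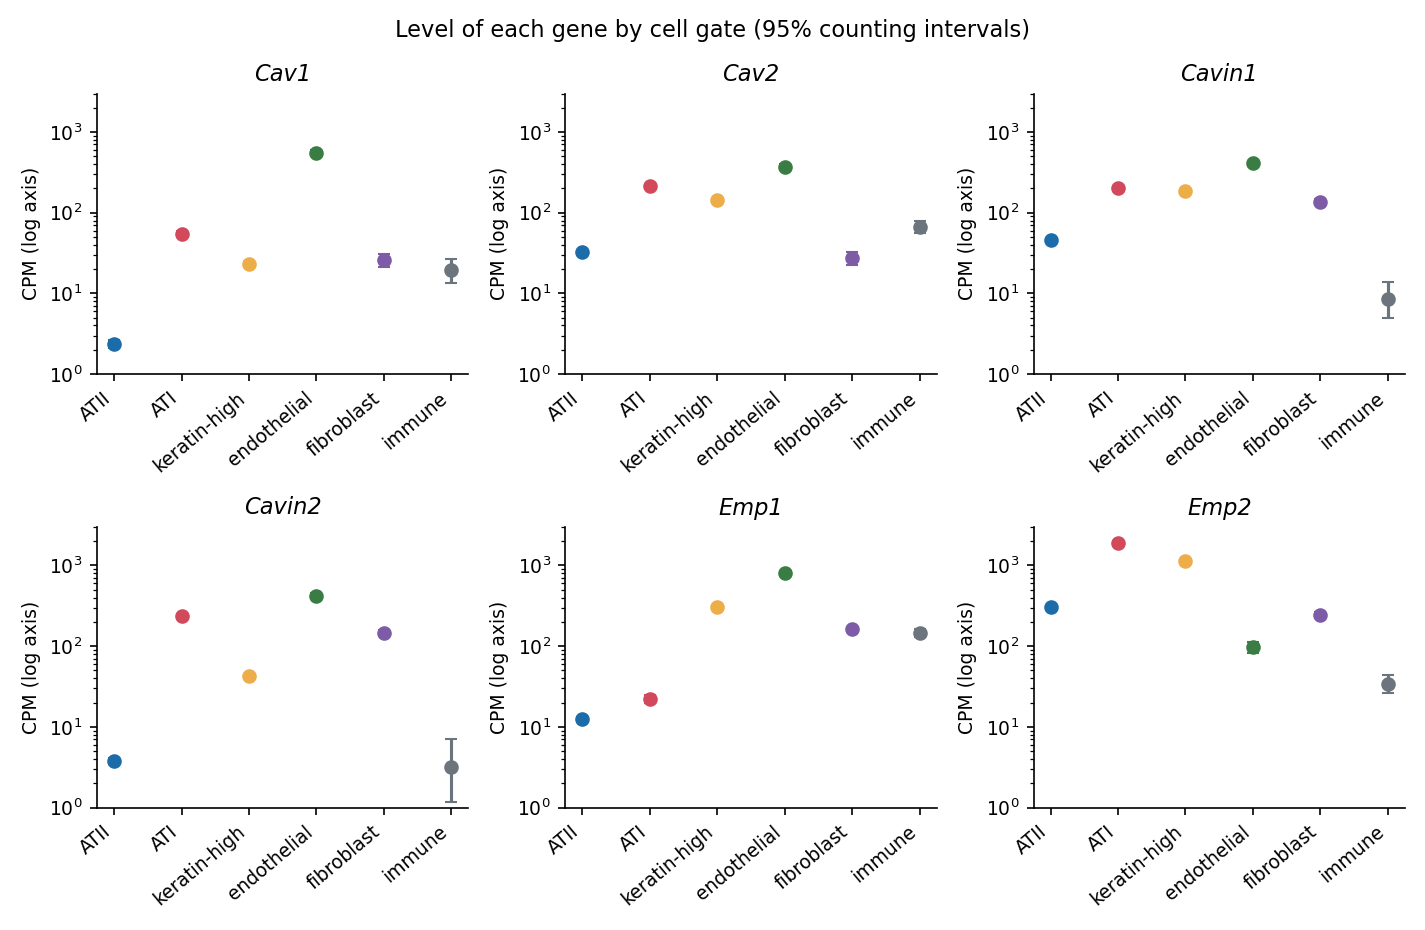
Level of each gene in CPM on a log axis (vertical) in the 6 gates (horizontal), with points for the summed UMIs of a gate and bars for exact Poisson 95% intervals. The 4 caveola genes and Emp1 are highest in the endothelial gate, Emp2 in the ATI gate, and Emp1 alone is higher in keratin-high cells (307 CPM) than in ATI cells (22.3 CPM).

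For counts over the 6 genes, a gene was called as higher or lower when the levels, with 1 CPM added to each, differed at least 2-fold, among genes with at least 1 CPM in either gate. From ATII to ATI, 5 of the 6 genes were higher, all but Emp1, against 10% of the 12058 genes compared. From ATII to keratin-high, 6 of 6 were higher, against 13.1% of 12183 genes. Between ATI and keratin-high cells the genes divided: Cav1 and Cavin2 were higher in ATI cells, 2 of 6 against 3.98% of 12160 genes, Emp1 was lower, 1 of 6 against 7.21%, and Cav2, Cavin1 and Emp2 differed less than 2-fold. The log2 ratio of Cav1, 1.24, fell below 1 with an ATI threshold of Hopx at least 10 (0.97) and with a keratin threshold of 100 (0.95). From ATI to endothelial cells, Cav1, Cavin1 and Emp1 were higher, 3 of 6 against 23% of 13492 genes, and Emp2 was lower, against 14.3%. No gene of the 6 was lower in ATI or keratin-high than in ATII cells, where 6.14% and 5.15% of genes were.

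The share of Sftpc in all UMIs differed between gates, at 15.5% in ATII, 4.75% in ATI, 1.92% in keratin-high and 1.10% in endothelial cells, and the median of all genes compared was shifted by 0.32 on the log2 scale in ATI over ATII and in keratin-high over ATII. It was shifted by 0.14 in endothelial over ATI and by -0.01 in ATI over keratin-high. Relative to the median gene, the log2 differences of the 6 genes ran from 0.47 (Emp1) to 5.31 (Cavin2) in ATI over ATII, from 1.58 (Emp2) to 4.19 (Emp1) in keratin-high over ATII, and from -4.40 (Emp2) to 4.96 (Emp1) in endothelial over ATI. Relative to the median gene, Cavin1 no longer passed 2-fold in endothelial over ATI (log2 difference 0.88). The unshifted median of the 6 was 2.66, 2.48 and 0.92 in these comparisons.

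Shares of cells gave the same order of these 4 gates at equal depth. Each cell was thinned to 5000 UMIs, which left out shallower cells (203 of the ATII, 115 of the ATI, 93 of the keratin-high and 30 of the endothelial gate). A Cav1 UMI was then found in 0.945% of ATII cells (0.729 to 1.21), 20.6% of ATI cells (17.9 to 23.5), 11.7% of keratin-high cells (9.89 to 13.8) and 88.0% of endothelial cells (79.0 to 94.1). For Cavin2 the shares were 1.64% (1.35 to 1.97), 47.2% (43.8 to 50.6), 16.2% (14.1 to 18.6) and 63.9% (52.6 to 74.1). Emp1 was found in 4.13% (3.67 to 4.64) of ATII, 6.54% (4.96 to 8.43) of ATI, 50.6% (47.6 to 53.7) of keratin-high and 86.7% (77.5 to 93.2) of endothelial cells, so the ATI and keratin-high shares of Emp1 lay far apart. Emp2 reached 73.3%, 99.9%, 96.2% and 25.3% in the same order, Cav2 12.8%, 59.0%, 49.5% and 84.3%, and Cavin1 20.1%, 64.0%, 59.7% and 84.3%.

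Before thinning, the shares were 4.23% for Cav1 and 5.53% for Cavin2 in ATII cells, and 37.2% and 60.4% in ATI cells. The immune gate, with a median of 25188 UMIs per cell against 21660 in the ATII gate, served as the cell type that should lack the caveola coat. Its thinned share was 1.43% for Cavin1 and for Cavin2 (both 0.0362 to 7.70) and 7.14% for Emp2 (2.36 to 15.9). The Cavin2 share of ATII cells was within that interval, which rests on 1 of 70 immune cells, so it could not be told apart from background in this way, while their Cavin1 share was above it. The immune gate held Cav1 in 4.29% (0.893 to 12.02), Cav2 in 24.3% and Emp1 in 52.9% of its thinned cells. It did not lack these transcripts, so no background share was available for them. That choice by gene was made after the values were seen, and the immune Cav1 interval overlaps those of Cavin1 and Cavin2. The ATII share of Cav1 was the lowest of any gate but lay within the immune interval. In the ATII gate, the 1% of cells with most UMIs of a gene held 40.9% of all Cav1 UMIs, 41.1% of Cavin2 and 37.5% of Emp1 UMIs, against 10.3% for Cav2, 7.06% for Cavin1 and 5.01% for Emp2.

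**Figure D2:**
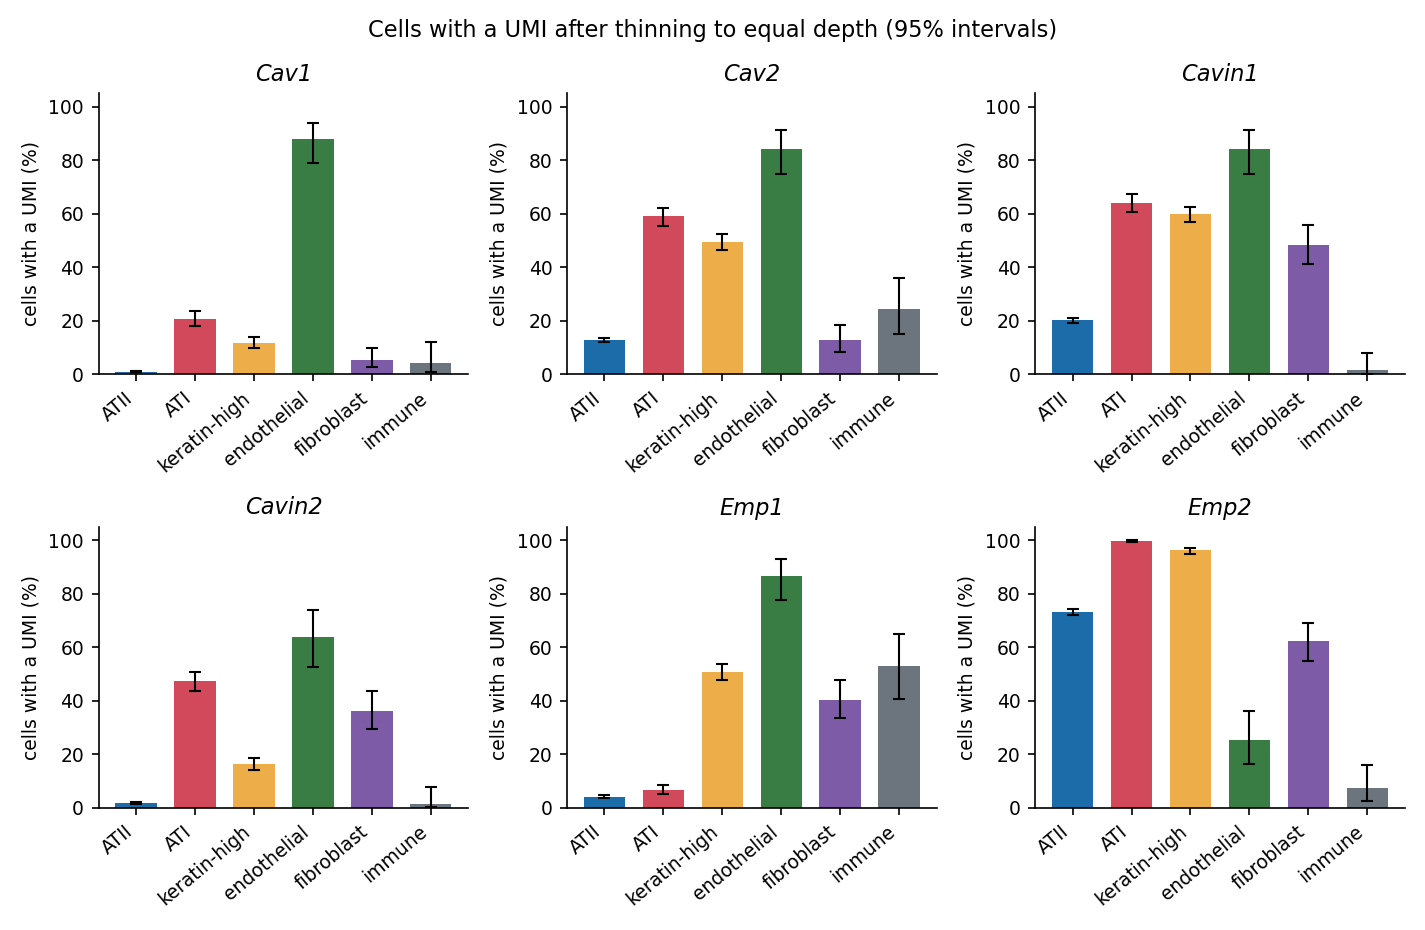
Percent of cells with a UMI of each gene (vertical, from 0) in the 6 gates (horizontal) after thinning to 5000 UMIs per cell, with exact binomial 95% intervals. Cav1 runs from 0.945% of ATII cells to 88.0% of endothelial cells, and Emp1 is found in 50.6% of keratin-high but 6.54% of ATI cells.

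Within the low-keratin cells outside the endothelial, fibroblast and immune gates, the caveola genes and Emp2 were higher in each bin with more Hopx, the ATI gene used for the gate. Cells with a keratin sum under 50, without those of the endothelial, fibroblast and immune gates, were divided into 6 bins of Hopx, with 4693, 3178, 943, 824, 462 and 494 cells from the lowest bin (Hopx at 0) to the highest (30 UMIs per 10000 or more). The upper 2 bins make up the ATI gate. Cav1 was measured at 1.77, 3.25, 8.49, 15.2, 38.5 and 76.6 CPM in these bins, each interval clear of the next. Cavin2 stood at 3.03, 7.67, 33.1, 76.9, 161 and 333 CPM, the steepest course of the 6. Cav2 went from 28.4 to 274.6 CPM, Cavin1 from 45.9 to 238 CPM and Emp2 from 288 to 2213 CPM, without a step down.

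Emp1 did not follow this course. It stood at 16.3 CPM (15.4 to 17.1) at Hopx 0, 21.7 CPM (20.7 to 22.7) in the next bin, 41.6 CPM (38.8 to 44.6) at Hopx 2 to under 5, 40.2 CPM (37.0 to 43.5) at 5 to under 15, 28.1 CPM (24.4 to 32.2) at 15 to under 30 and 14.9 CPM (11.9 to 18.4) at 30 and over. Its level was highest in the middle bins, and the intervals of the lowest and the highest bin overlapped. Median depth was 16686 UMIs per cell in the lowest and 10204.5 in the highest bin, and Sftpc took 14.8% and 3.36% of UMIs, and the part of either in these courses was not tested.

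Along the keratins, with the same cells left out, all 6 genes were higher at the top than at the bottom, and Emp1 most. Cells with Hopx under 2, again without the endothelial, fibroblast and immune gates, were divided by the sum of Krt8 and Krt18 into 5 bins of 1905, 4177, 1789, 417 and 203 cells. Emp1 stood at 5.10, 7.65, 58.8, 307 and 573 CPM from the lowest bin (under 5) to the highest (100 and over). Cav1 went from 1.74 (1.32 to 2.24) to 20.3 CPM (16.9 to 24.2) and Cavin2 from 2.39 (1.89 to 2.97) to 28.3 CPM (24.2 to 32.8), and for both the lowest 2 bins overlapped. Cav2 went from 23.8 to 136 CPM, Cavin1 from 33.3 to 201 CPM and Emp2 from 250.1 to 892 CPM.

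Leaving out the endothelial, fibroblast and immune gates was chosen after seeing the data, and it changed the low ends of both courses. With these cells in, the Hopx 0 bin had 10.9 CPM of Cav1 and 13.6 CPM of Cavin2, above the next bin at 5.80 and 11.4 CPM. Emp1 stood at 35.1 CPM (33.9 to 36.3) in that bin, so that its interval no longer overlapped with that of the highest bin. In the lowest keratin bin, Cav1 stood at 27.0 CPM and Cavin2 at 34.1 CPM, above their levels of 20.3 and 28.3 CPM in the highest keratin bin, so that both turned direction. Emp1 stood at 57.6 CPM in the lowest keratin bin and was still higher in the highest.

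**Figure D3:**
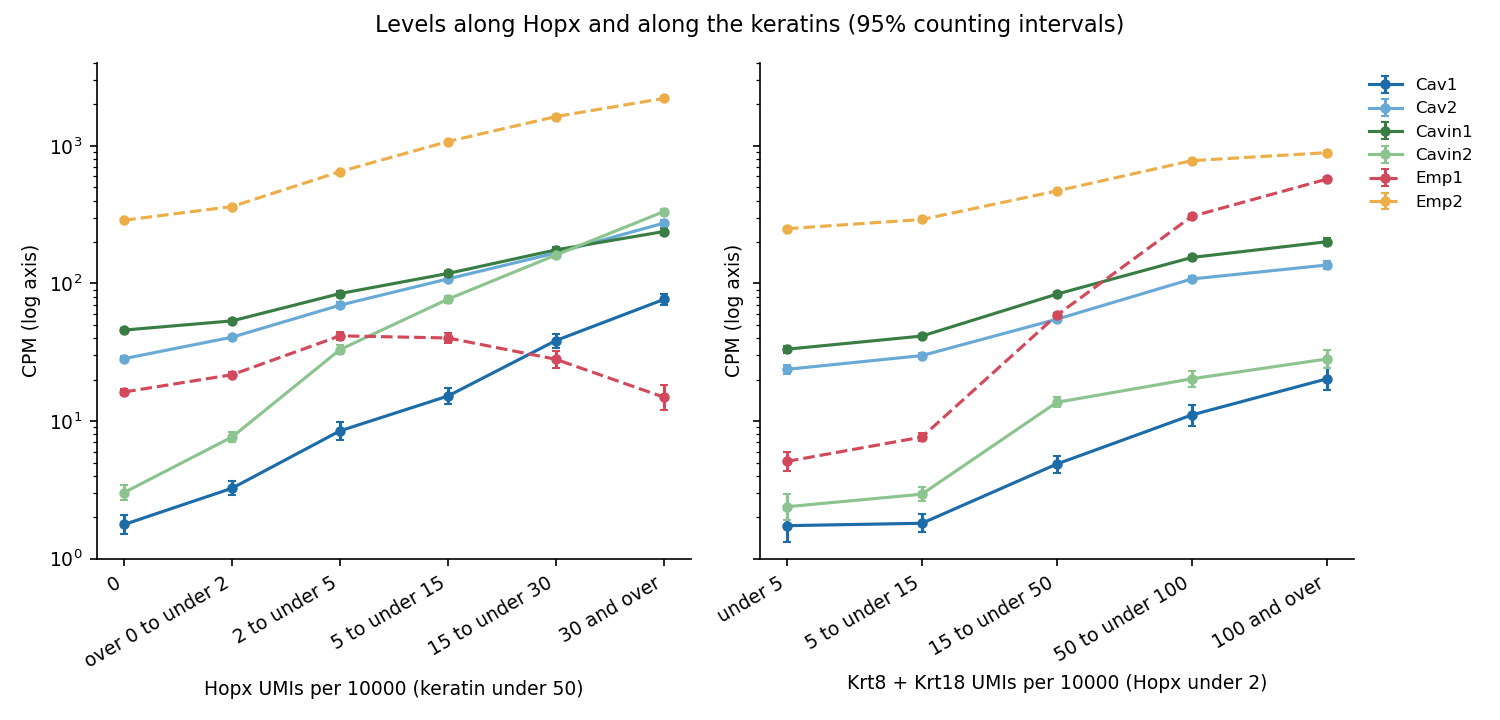
Level of each gene in CPM (vertical, log axis) across bins of Hopx in low-keratin cells (left, horizontal axis) and across bins of the Krt8 and Krt18 sum in cells with Hopx under 2 (right), without cells of the endothelial, fibroblast and immune gates. Points are bins and bars exact Poisson 95% intervals, and Emp1 is at 14.9 CPM at the top of the Hopx axis and at 573 CPM at the top of the keratin axis.

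Splitting the keratin-high cells by Hopx set Emp1 against the other 5 genes inside 1 gate. The split gave 620 cells with Hopx under 2, 436 with 2 to under 15 and 127 with 15 and over. Emp1 stood at 398 CPM (389 to 407), 201 CPM (192 to 209) and 80.1 CPM (68.5 to 93.0). Cav1 stood at 14.2 CPM (12.5 to 16.1), 32.7 CPM (29.3 to 36.3) and 53.8 CPM (44.5 to 64.6), and Cavin2 at 23.0 (20.8 to 25.4), 65.7 (61.0 to 70.8) and 98.3 CPM (85.5 to 113). Emp2 went from 819 to 1481 and 2152 CPM and Cav2 from 118 to 166 and 222 CPM. Cavin1 was flattest, at 170 CPM (164 to 177), 205 CPM (196 to 213) and 221 CPM (201 to 241), with overlapping intervals in the upper bins. Sftpc took 1.92%, 1.89% and 2.13% of UMIs in the 3 bins, and median depth was 27049, 22244 and 15598 UMIs per cell. Even the keratin-high cells with most Hopx held more Emp1 (80.1 CPM) than the ATI gate (22.3 CPM).

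**Figure D4:**
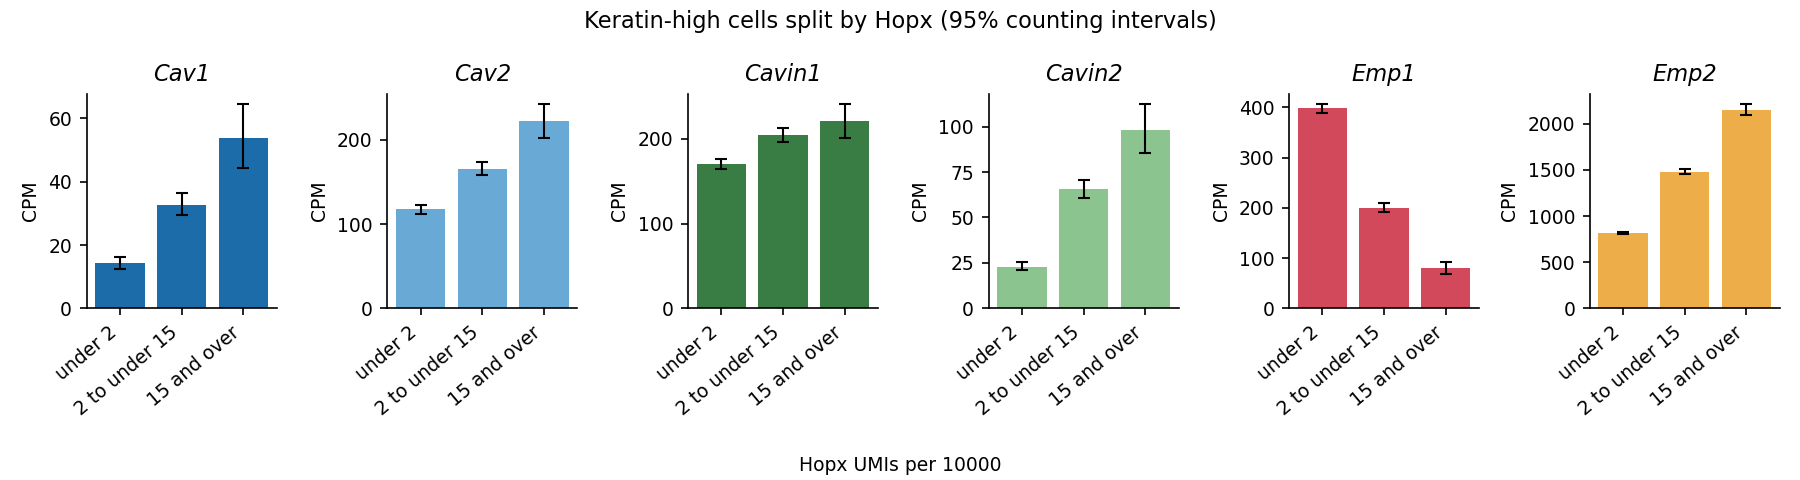
Level of each gene in CPM (vertical, from 0, each panel with its own scale) in keratin-high cells with Hopx under 2, 2 to under 15, and 15 and over UMIs per 10000 (horizontal), with exact Poisson 95% intervals. Emp1 is lower in each bin with more Hopx (398 to 80.1 CPM), and the other 5 genes are higher in the last bin than in the first.

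The balance within each pair moved between gates. UMIs of Cav1 per UMI of Cav2 numbered 0.0731 (0.0657 to 0.0812) in the ATII gate, 0.165 (0.153 to 0.179) in the keratin-high gate, 0.258 (0.237 to 0.280) in the ATI gate and 1.51 (1.37 to 1.66) in the endothelial gate. Cavin2 per Cavin1 was 0.0816 (0.0750 to 0.0886) in ATII, 0.232 (0.219 to 0.247) in keratin-high, 1.16 (1.11 to 1.23) in ATI, 1.02 (0.918 to 1.13) in endothelial cells and 1.07 (0.952 to 1.20) in the fibroblast gate, and the intervals of these last 3 gates overlapped. Emp1 per Emp2 was 0.0118 (0.0105 to 0.0133) in ATI, 0.0411 (0.0393 to 0.0430) in ATII, 0.269 (0.263 to 0.275) in keratin-high and 8.23 (7.03 to 9.68) in endothelial cells. The ratios of different transcripts depend also on how well each is captured, so only their change between gates is read here.

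**Figure D5:**
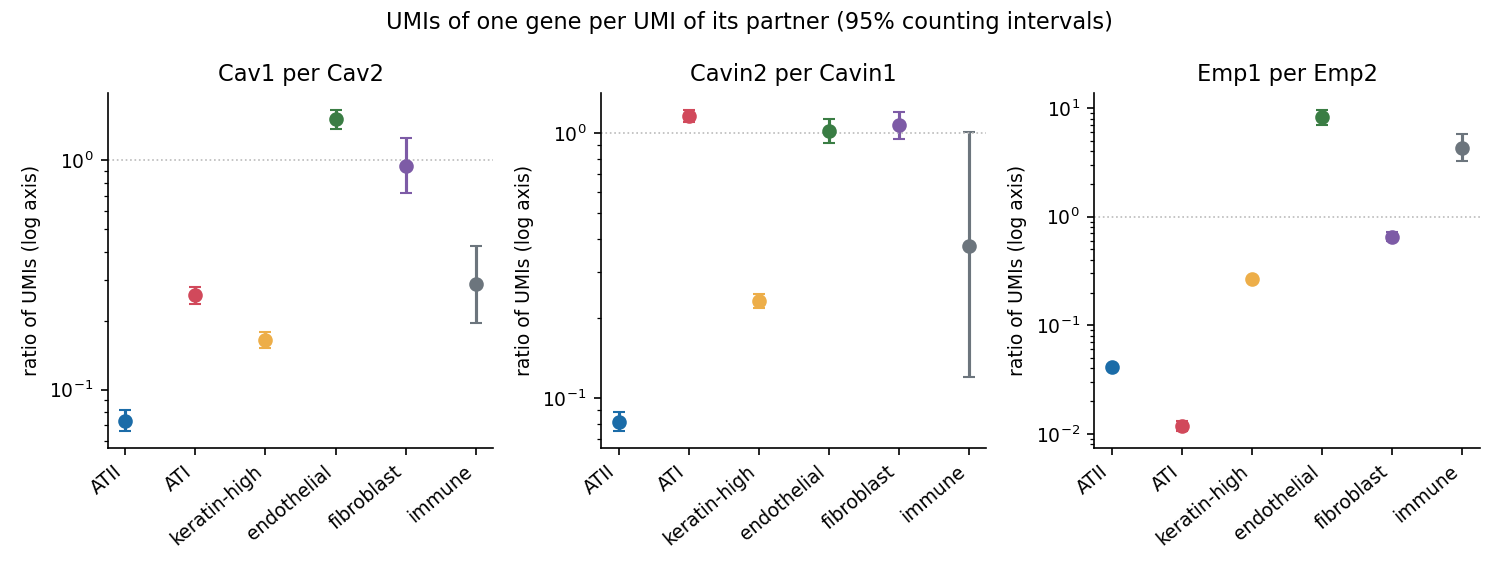
UMIs of Cav1 per Cav2, Cavin2 per Cavin1 and Emp1 per Emp2 (vertical, log axes that differ between panels) in the 6 gates (horizontal), with exact 95% counting intervals and a dotted line at 1. From the ATI to the endothelial gate, Cavin2 per Cavin1 goes from 1.16 to 1.02 and Cav1 per Cav2 from 0.258 to 1.51.

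Joint detection was read in single cells thinned to the same depth. In ATII cells, where Cav1 was scarce, Cav2 was detected in 31.2% of the 64 cells with Cav1 and in 12.7% of the others, while Cavin1 was detected in 15.6% of those 64 cells and in 20.1% of the others. The ATII gate includes 5 cells of the endothelial gate. Cav2 was detected in 74.0% of the 173 ATI cells with Cav1 and in 55.1% of those without it, and in 59.4% and 48.2% of keratin-high cells with and without Cav1. In keratin-high cells Cavin2 was detected in 28.9% of the 128 cells with Cav1 and 14.6% of the others, while Emp1 was detected in 39.5% of the 177 cells with Cavin2 and 52.8% of the others. In endothelial cells 91.8% of the 73 cells with Cav1 had Cav2, and 10 of the 83 thinned cells (12.05%) held all 6 genes. All 6 were found in 8 of 1090 keratin-high cells and in 0 of 841 ATI and 0 of 6772 ATII cells, which allows shares of up to 0.357% and 0.0443%. These limits are on cells with a UMI of each gene at 5000 UMIs, not on cells that express all 6, since Emp1 was seen in 6.54% and Cav1 in 20.6% of ATI cells. None of the 6 was found in 19.1% of ATII cells.

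Other genes of caveolae and their necks were read from a list of 12 symbols. Ptrf and Sdpr, the older symbols of Cavin1 and Cavin2, matched no feature, and 10 genes were found, of which 7 reached 1 CPM in ATI or ATII cells. From ATII to ATI, 3 of the 7 were higher and 1 lower, against 10% and 6.14% of all genes (median log2 0.99 against 0.32). From ATII to keratin-high 5 were higher and 1 lower, against 13.1% and 5.15% (median 1.34 against 0.32). Cavin3, the cavin that binds protein kinase C delta, stood at 34.7 CPM in ATII, 286 CPM in ATI and 848 CPM in keratin-high cells, so that its ATI level was 0.338 times (0.326 to 0.350) the keratin-high level, in contrast to Cavin1 at 1.09 times and Cavin2 at 5.48 times. Ehd2, the ATPase at the neck of caveolae, stood at 35.0, 193 and 153 CPM. Ror1, a receptor that binds caveola proteins, was the gene that was lower, at 0.386 times (0.277 to 0.524) the ATII level in ATI cells. Cav3, the caveolin of muscle, had 5 UMIs in the ATII gate and 0 in the ATI and keratin-high gates, which allows up to 0.225 and 0.0978 CPM.

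Relatives of Emp1 and Emp2 and other genes of small tetraspan proteins were read from a list of 10 genes, with 8 compared between the epithelial gates. From ATII to ATI, 2 were higher and 1 lower, against 10% and 6.14% of all genes (median log2 0.62 against 0.32). From ATII to keratin-high 5 were higher and 0 lower, against 13.1% and 5.15% (median 1.33 against 0.32). Pmp22, the founding gene of the family, stood at 27.7 CPM in ATII, 278 CPM in ATI and 75.5 CPM in keratin-high cells. Emp3, another epithelial membrane protein gene, stood at 9.67, 15.6 and 109 CPM, and its ATI level was 0.143 times (0.124 to 0.165) the keratin-high level. Of the 8 genes, 1 was higher and 4 were lower in ATI than in keratin-high cells, against 3.98% and 7.21% of all genes. Mall, a relative of the raft protein gene Mal, was the gene lower in ATI than in ATII cells, at 0.176 times (0.0703 to 0.365) the ATII level, and was scarce, at 2.98 CPM in ATII, 0.525 CPM in ATI (7 UMIs) and 4.34 CPM in keratin-high cells.

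Of 10 flotillin and raft genes, which mark membrane domains other than caveolae, 2 were higher in ATI than in ATII cells, against 10% of all genes. In keratin-high over ATII cells, 4 were higher and 1 lower, against 13.1% and 5.15%. Flot1, a raft scaffold, stood at 36.0 CPM in ATII, 92.8 CPM in ATI and 92.0 CPM in keratin-high cells. S100a10, the partner of annexin A2, and Anxa2 itself were 7.60 (7.46 to 7.73) and 6.18 times (6.11 to 6.26) higher in keratin-high than in ATII cells, and Erlin1, of the endoplasmic reticulum, was 0.444 times (0.389 to 0.504) the ATII level. The median log2 ratio over the list was 0.58 in ATI over ATII and 0.53 in keratin-high over ATII.

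Genes with the pattern most like each member were sought over 40 groups of cells, formed from 20 principal components without the members and gate genes, with the Pearson r of log2(CPM + 1) as the measure among 7844 genes with at least 10 CPM. Groups held 15 to 1282 cells and shared libraries and depth, so r is a description. The nearest genes were Ubl7 and Ccdc12 for Cav1 (r = 0.813 and 0.801), Tspan13 and Anp32a for Cav2 (both 0.886), Ehd2 and Cdc42ep1 for Cavin1 (0.914 and 0.871), Rab12 and Cavin1 for Cavin2 (0.861 and 0.834), Pdlim7 and Plaur for Emp1 (0.880 and 0.874) and Apbb1 and Wdr45 for Emp2 (0.913 and 0.908). The next 3 in order were Tgm2, Mtpap and Rab12 for Cav1, Cdipt, Frg1 and Puf60 for Cav2, Rbm18, Ets1 and Cfl2 for Cavin1, Hmg20b, Nap1l4 and Sptbn1 for Cavin2, Trp53, Zyx and Gsdmd for Emp1, and Fat1, Cap2 and Ctnna1 for Emp2. Among the members, r was 0.834 between Cavin1 and Cavin2, 0.741 between Cav1 and Cavin2, 0.690 between Cav1 and Cav2 and -0.103 between Emp1 and Emp2. Few of these neighbours recurred with 80 groups, where 0 to 3 of the 5 were shared for a member. When cells of the endothelial, fibroblast and immune gates were left out, 0 to 2 were shared, and r between Cavin1 and Cavin2 was 0.886 and between Emp1 and Emp2 0.348.

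Markers of other cell types were measured in the same gates. The 16 endothelial markers summed to 98.0 CPM in ATII, 121 CPM in ATI, 86.2 CPM in keratin-high and 10618 CPM in endothelial cells, and in single cells the sum ranged per 10000 UMIs from 0 to 82.3, 37.3, 46.6 and, in the endothelial gate, from 17.1 to 226. Most of the sum in the epithelial gates came from Esam, a cell adhesion gene, which stood at 78.3 CPM in ATII, 109.9 CPM in ATI and 77.0 CPM in keratin-high cells against 808 CPM in endothelial cells. Of the other markers, Cldn5 and Ramp2 stood at 1.05 and 2.25 CPM in ATI cells against 887 and 1559 CPM in endothelial cells, and Cldn5 had 0 UMIs in keratin-high cells, which allows up to 0.0978 CPM. The 10 fibroblast markers summed to 31.8, 10.0, 11.1 and 1432 CPM in the same order, with 4 of 10 at 0 in the ATI gate. The 10 pericyte and smooth muscle markers summed to 3.03, 5.17, 20.97 and 151 CPM and the 10 immune markers to 8.86, 7.27, 7.76 and 10.5 CPM. The 10 airway markers summed to 123, 47.4, 17.8 and 739.7 CPM. The 8 mesothelial markers summed to 1.61, 39.1, 125 and 2.76 CPM, of which Msln alone gave 1.31, 39.0, 125 and 0 CPM. The courses along Hopx and the keratins are given above with and without cells of the other gates. Without epithelial cells that carried stromal UMIs, the log2 ratio of ATI over ATII was 4.66 for Cav1 and 5.97 for Cavin2, against 4.55 and 5.96 with them.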

How the data were processed

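The 6 genes and the gene lists were chosen with earlier results of these data known. The deposited values were raw whole-number UMI counts for every gene in every cell. Libraries were made with the 10x 3′ kit v3, and the authors obtained the counts through Cell Ranger 3.0.2 on the mm10 genome. Strand handling is not given in the sources used here, and reads of the antisense partners were not examined. The sort left out dead cells and cells stained for CD45, CD31, F4/80 or Ter119.

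Cells with at least 500 genes and at most 20% mitochondrial UMIs were kept. No map from cells to mice was read, so no test was made and the pooled matrix was 1 sample. UMIs were summed per gate and divided by the gate total (CPM), so deeper cells weigh more. Exact Poisson (levels), conditional binomial (ratios) and Clopper-Pearson (shares) 95% intervals were used. They cover counting error only, and a count of 0 was given a limit of 3 counts. Ratios in the text are of CPM, and 1 CPM was added only for counts of genes past 2-fold, ranks and differences from the median gene. Cells were thinned without replacement to 5000 UMIs for shares. Doublets were kept, since no caller was run, and an alternative left out the 5% of cells with most UMIs. The text names the 6 genes, gate genes, 2 to 4 genes of a described list by the largest and smallest ratios (12 lists in all), and the 5 genes most like each member. Anxa2, Cav3, Cldn5, Esam, Ramp2 and Msln were named after their values were seen. Alternatives changed the cell filters, gates, weighting and scaling. The interval and the 2-fold rule were run on simulated Poisson counts, the model that the interval assumes. Extra spread between cells was not simulated, so that run does not bear on it. Coordinates came from GENCODE M21, whose IDs matched 30934 of 31055 features, and promoters from RefSeq, with an entry for all 6 genes. Groups of cells came from scikit-learn 1.9.0, intervals from scipy 1.17.1, tables from pandas 2.3.3 with numpy 2.4.6, and plots from matplotlib 3.10.9, all under Python 3.11.15. A planned comparison of protein sequences was not run.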

Additional observations from a re-analysis of the deposited data

Results flagged for a closer look

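Cells removed by the filters also held UMIs of all 6 genes, above what a count of 0 would allow, and no comparison above uses them. In the 1753 cells with over 20% mitochondrial UMIs (median 3468 UMIs per cell), levels were 3.48 CPM for Cav1 (2.23 to 5.17), 16.8 CPM for Cav2 (13.9 to 20.2), 50.6 CPM for Cavin1 (45.4 to 56.2), 7.83 CPM for Cavin2 (5.88 to 10.2), 39.1 CPM for Emp1 (34.6 to 44.1) and 226 CPM for Emp2 (215 to 237). In the 2081 cells with under 500 genes (median 1170 UMIs per cell, 66.6% of them mitochondrial), levels were 9.44 CPM for Cav1 (6.11 to 13.9), 23.0 CPM for Cav2 (17.6 to 29.6), 37.4 CPM for Cavin1 (30.4 to 45.5), 14.7 CPM for Cavin2 (10.5 to 20.1), 25.7 CPM for Emp1 (19.9 to 32.5) and 189.9 CPM for Emp2 (174 to 207). Mitochondrial UMIs are part of the totals here and lower every level.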

How the results depend on the processing

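The 24 ratios were recomputed under 15 other settings, and 2 of the 360 values turned direction. Part of the 360 could not change. Dropping the CPM minimum left all 24 ratios as they were. The Hopx settings do not enter keratin-high over ATII. The Sftpc setting enters neither ATI over keratin-high nor endothelial over ATI, and leaving out fibroblast and immune gate cells did not touch ATI over keratin-high. Cavin1 in ATI over keratin-high cells had a log2 ratio of 0.13, and -0.017 with Hopx of at least 10 and -0.040 with a keratin threshold of 100. The number of the 6 genes at least 2-fold higher in ATI than in keratin-high cells was 2, and 1 under each of these settings, where Cav1 no longer passed (log2 0.97 and 0.95). In endothelial over ATI cells it was 3, and 4 without the endothelial cells that overlap other gates or with Hopx of at least 10, and 2 with Hopx of at least 30, with a keratin threshold of 100, relative to the median gene, or without the 10 most abundant genes in the totals. It was 5 in ATI over ATII, and 6 with Hopx of at least 10 or Sftpc of at least 1000, where Emp1 passed (log2 1.23 at the latter). With Hopx of at least 30 the log2 ratio of Emp1 was 0.25 instead of 0.84. Emp2 in endothelial over ATI cells moved by over 1.5 times, from a log2 of -4.28 to -4.89, without overlapping cells. Many values lay outside the counting interval of the main ratio, among them 18 of 24 with Hopx of at least 30. Without the 10 most abundant genes in the totals it was 20 of 24. Across settings, Cavin2 in ATI over ATII ran from 50.1 to 88.0 times and Cav1 from 18.8 to 32.5 times. The counting intervals do not hold this spread. All 6 were higher in keratin-high than in ATII cells under each setting, though the Hopx settings and the dropped CPM minimum could not change these ratios. Leaving out fibroblast and immune gate cells was chosen after seeing the data and changed no count. Courses along Hopx and the keratins, and nearest genes, without endothelial, fibroblast and immune gate cells were also chosen after seeing the data. No paired analysis was possible because cells could not be assigned to mice. The number of cells limits the endothelial values, which rest on 113 cells, and variation between mice is not measured.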
